A study of Mus musculus with 14 samples.

Results

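The carboxylesterase 2 cluster is a run of related esterase genes on mouse chromosome 8. The 4 genes described here, Ces2b, Ces2c, Ces2e and Ces2g, were taken by gene name from the array annotation. They were chosen because, in these same data, members moved in opposite directions with the siRNAs Si1AK and Si2AK. Their levels in Si1AK, Si2AK and SiC arrays are therefore given as a description, without a test. The 4 genes had 7 of the 55681 non-control probes on the array. All 4 were among the 21356 genes tested, which needed a probe detected well above background on each array of some group. Ces2b passed that filter only through its Si1AK arrays.

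The cells were mSCC-38, a mouse line isolated from a skin squamous cell carcinoma that had been induced chemically by DMBA and TPA. Si1AK (4 arrays) and Si2AK (3 arrays) are distinct siRNAs against the long non-coding transcript AK144841, SiC (3 arrays) is a control siRNA, and NT (4 arrays) are cells that were not transfected. Transfected cells were harvested after 72 h, and no harvest time is given for NT cells. Each of the 14 samples was hybridised to its own Cy3 array. Whether replicates came from separate cultures is not stated in the sources used here. The spread behind each p-value is thus that between arrays, which may be technical. All groups share 1 cell line, and the level of AK144841 was not analysed here, so the knockdown was not checked.

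Carboxylesterases are serine hydrolases of the endoplasmic reticulum that split ester bonds in drugs, pesticides and lipids. The Ces2 branch is known mainly from liver and intestine, where it acts on ester prodrugs and on acylglycerols. In mice the branch has expanded into a row of neighbouring genes, whereas humans carry a lone CES2, known for activating the anticancer prodrug irinotecan. The copies resemble each other closely, so which transcripts a probe can bind matters for every value that follows.

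The probe sequences were copied from the array files, with positions on mouse build mm9, plus strand. The probe that carried the Ces2c signal, A_55_P2005213, lies at chr8:107378105-107378164 and ends on the TAG stop codon. Its annotation also lists transcripts of Ces2b and of the pseudogene Ces2d-ps. It is shown with the probes of Ces2g (A_52_P267824, chr8:107492279-107492338) and Ces2h (A_55_P2139431, chr8:107544251-107544310), which cover the same end of the gene. Capitals in these 2 mark bases equal to the Ces2c probe.
Ces2c: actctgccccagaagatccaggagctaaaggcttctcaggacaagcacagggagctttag
Ces2g: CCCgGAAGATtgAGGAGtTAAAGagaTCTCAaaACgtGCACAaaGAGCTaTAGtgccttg
Ces2h: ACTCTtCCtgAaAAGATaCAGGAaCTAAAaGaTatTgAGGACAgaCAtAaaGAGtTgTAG
The Ces2g probe matched the Ces2c probe at 39 of 53 overlapping bases, and the Ces2h probe matched it at 42 of 60.

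All probes on the array were searched for a shared stretch of at least 10 bases with a member probe and at least 30 equal bases making up at least 70% of the overlap. The search found 1 probe with no gene name, A_55_P2107528, described in the files as unknown. It maps to the minus strand at chr8:107199432-107199491, 162.93 kb before the first member probe. It differed from the Ces2c probe at 9 of 60 bases, shown in capitals, and matched the Ces2g probe at 41 of 53.
Unnamed probe: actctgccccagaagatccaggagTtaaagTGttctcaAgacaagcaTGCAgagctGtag
Within these limits the other match was between the Ces2b probe (A_52_P627269, chr8:107362421-107362480) and a second Ces2c probe (A_55_P2124712, chr8:107378258-107378317). They were equal at 31 of 34 overlapping bases. A stretch of 30 bases, in which 2 differ (capitals), is shown.
Ces2b probe: tTtgtcacctcagtctttgagctttcCtgt
Ces2c, second probe: tCtgtcacctcagtctttgagctttcAtgt
The Ces2e probe with the higher signal (A_55_P1959500, chr8:107458508-107458567) had no match within these limits. It begins atgtatggaagtgacttcttgcctttcata.

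Signal differed between arrays in a way the groups do not explain. The median processed signal of non-control probes lay between 23.5 and 58.7 on 12 arrays, but SiC replicate 1 reached 270.9 and Si2AK replicate 2 reached 107.5. Between 51.7% and 59.3% of probes were well above background on those 12 arrays, against 90.2% for SiC replicate 1 and 84.5% for Si2AK replicate 2. All arrays lay on 2 slides of 7, and each slide held every group. SiC replicate 1 was the only SiC array on slide 1, and Si2AK replicate 3 the only Si2AK array on slide 2. Values given for 1 slide that use these groups thus rest on 1 array on that side. Levels below are log2 processed signal minus the array's 75th percentile, so they are relative, and levels of different probes are not set against each other. Of the 10 keratinocyte markers, 8 were well above background on all 14 arrays, among them Krt5, Krt14 and Trp63. Cdh1 was on only 2 arrays and Dsg3 on 8.

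Ces2e showed the clearest separation. Its level (A_55_P1959500, above background on all 14 arrays) was 3.79, 4.02, 3.41 and 3.41 in Si1AK cells and 1.45, 1.32 and 1.11 in Si2AK cells. It was 2.20, 2.13 and 2.08 in SiC cells and 2.51, 2.54, 2.36 and 2.31 in NT cells. The order was Si1AK, NT, SiC and Si2AK, and no group overlapped another. On the log2 scale, Ces2e stood 1.52 (SE 0.15) higher in Si1AK than in SiC cells, or 2.87-fold. In Si2AK cells it differed from SiC by -0.84 (SE 0.16), a level 1.79-fold lower. Between the siRNAs, Si2AK minus Si1AK was -2.36 (SE 0.15). Without SiC replicate 1 and Si2AK replicate 2, the arrays of raised signal, the differences from SiC were 1.55 and -0.82. Within slide 1 the pair of values was 1.71 and -0.81. Within slide 2 it was 1.30 and -0.99. In bulk RNA, a change in the share of cells that express a gene and a change in RNA per cell cannot be told apart.

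The second Ces2e probe (A_51_P179919, chr8:107457772-107457831) gave a noisier picture. It lies at base 1898 of the transcript in the array annotation, and the first probe at base 2634. Its levels were -3.77, -3.38, -3.82 and -4.18 in Si1AK cells and -5.08, -4.40 and -5.97 in Si2AK cells, the last of these not well above background. They were -2.67, -4.32 and -5.01 in SiC cells and -4.02, -5.45, -4.68 and -4.69 in NT cells, where the second array was not well above background. Si1AK and Si2AK cells did not overlap on this probe either. The difference from SiC was 0.22 (SE 0.54) with Si1AK and -1.15 (SE 0.58) with Si2AK, both with overlapping arrays. The highest SiC value came from replicate 1, the array with raised signal. With both probes averaged, the Ces2e difference between Si1AK and SiC was 0.87.

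Ces2g, also measured on all 14 arrays, was highest with Si1AK but did not stand below the control siRNA with Si2AK. Its level was 1.80, 1.88, 1.70 and 1.66 in Si1AK cells and 0.91, 0.87 and 0.82 in Si2AK cells, against 0.81, 1.0 and 1.02 in SiC cells and 1.24, 1.28, 1.31 and 1.28 in NT cells. The Si2AK and SiC arrays overlapped, and both groups lay below every NT array. The difference from SiC was 0.82 (SE 0.08), or 1.76-fold, with Si1AK. With Si2AK it was -0.08 (SE 0.08). Without the arrays of raised signal these were 0.75 and -0.14, on slide 1 they were 1.03 and 0.077, and on slide 2 they were 0.67 and -0.19. Against NT, Si1AK differed by 0.48 and Si2AK by -0.41. Ces2g thus had opposite signs with the siRNAs and no overlap against NT cells, but overlapped SiC with Si2AK. The control siRNA itself differed from NT by -0.34, so the lower level than in NT cells was not particular to Si2AK.

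The probe annotated to Ces2c, which encodes an enzyme shown in mice to hydrolyse acylglycerols, followed Ces2e in direction. Its level (A_55_P2005213) was 0.75, 0.95, 0.62 and 0.45 in Si1AK cells and -1.62, -1.32 and -1.51 in Si2AK cells. In SiC cells it was 0.12, -0.82 and -0.67, and in NT cells -0.33, -0.47, -0.43 and -0.39. Every Si1AK array was above, and every Si2AK array below, all SiC and NT arrays. SiC and NT overlapped, since SiC replicate 1 stood above the NT arrays and the other SiC arrays below them. The differences from SiC were 1.15 (SE 0.19), or 2.22-fold, with Si1AK and -1.03 (SE 0.21), or 2.04-fold lower, with Si2AK.

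The Ces2c differences moved with SiC replicate 1, the array with the most raised signal. Without it, the difference from SiC was 1.43 with Si1AK and -0.74 with Si2AK. On slide 1, where it is the only SiC array, the differences were 0.73 and -1.59, and on slide 2 they were 1.28 and -0.77. Between the siRNAs, Si2AK minus Si1AK was -2.18 (SE 0.19, from the spread over all groups, SiC replicate 1 included), with -2.32 on slide 1 and -2.04 on slide 2.

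The other Ces2c probes did not add a measurement. A_55_P2124712 was well above background on 2 arrays, both Si1AK, and A_52_P318361 (chr8:107378292-107378351) on none. The annotation lists Ces2b and Ces2d-ps transcripts for the bright probe, so its signal cannot be assigned to Ces2c alone. The 4 plotted members are thus 4 probes, of which the Ces2c probe may read several genes.

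**Figure D1:**
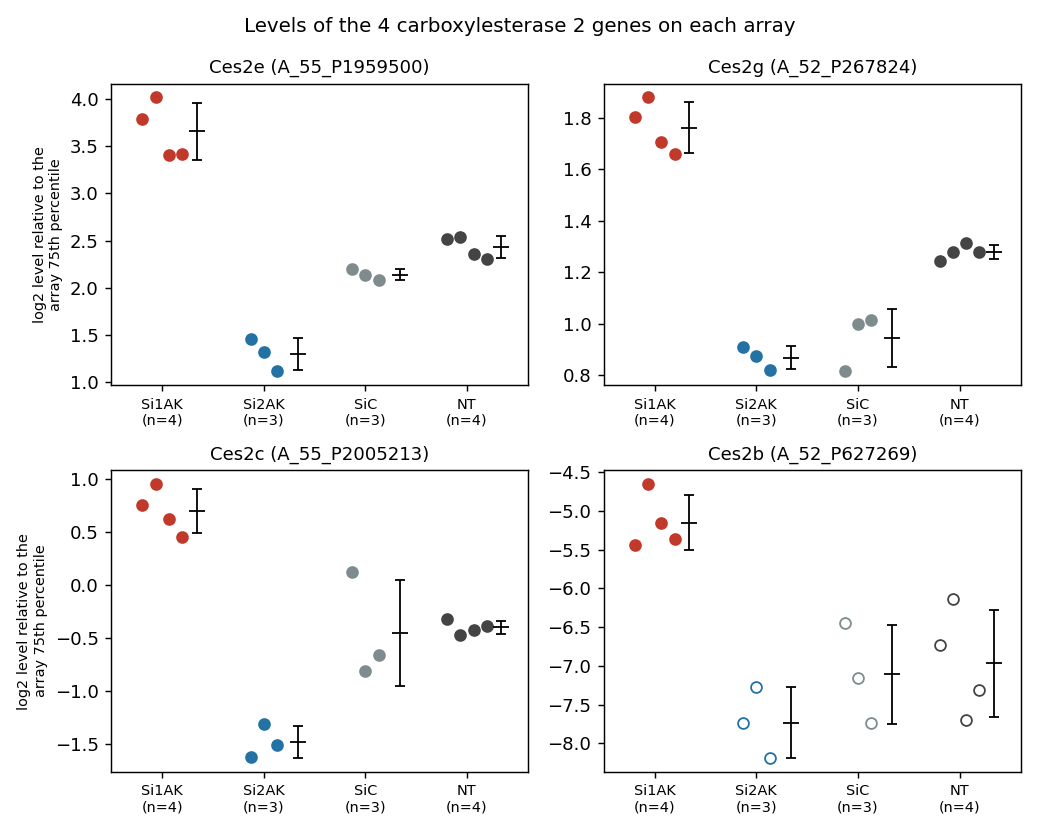
Level of the tested probe of each gene on every array (vertical axis, log2 signal relative to the array's 75th percentile), for Si1AK, Si2AK, SiC and NT cells from left to right. Filled points were well above background and open points were not. Bars show mean ± SD. The Si1AK arrays lie above all others in each panel, while Si2AK lies below SiC and NT for Ces2e and Ces2c.

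Ces2b was near the detection limit. It cleared background on 4 of 4 Si1AK arrays, where it read -5.44, -4.65, -5.15 and -5.36. On all other arrays it was not well above background, with readings of -7.74, -7.28 and -8.19 in Si2AK cells, -6.44, -7.16 and -7.73 in SiC cells, and -6.73, -6.13, -7.70 and -7.31 in NT cells. The Si1AK readings did not overlap those of any other group. For probes of this kind the dim group was set, per array, to the lowest signal found well above background, or to its own reading where that was higher. On that scale Ces2b was at least 1.36-fold lower in Si2AK than in Si1AK cells, from means of -5.60 as a bound for Si2AK, where the measured mean was -7.73, and -5.15 in Si1AK. No fold could be given for Si1AK against SiC or NT, since the bounds of those groups, -5.03 and -5.09, were above the Si1AK mean. Si2AK and SiC were both below background, so whether Ces2b was lower with Si2AK than with SiC was not measurable.

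Set against NT cells instead of SiC cells, the directions were unchanged for Ces2e and Ces2c. Ces2e differed from NT by 1.23 with Si1AK and by -1.13 with Si2AK, and Ces2c by 1.10 and -1.08. A pattern in which every Si1AK array is above, and every Si2AK array below, all SiC and NT arrays was seen in 84 of 21356 genes (0.393%), among them Ces2e and Ces2c. All 4 members had every Si1AK reading above all other arrays, which 2.91% of genes had. The members were chosen on these contrasts, so nothing is read from either count.

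**Figure D2:**
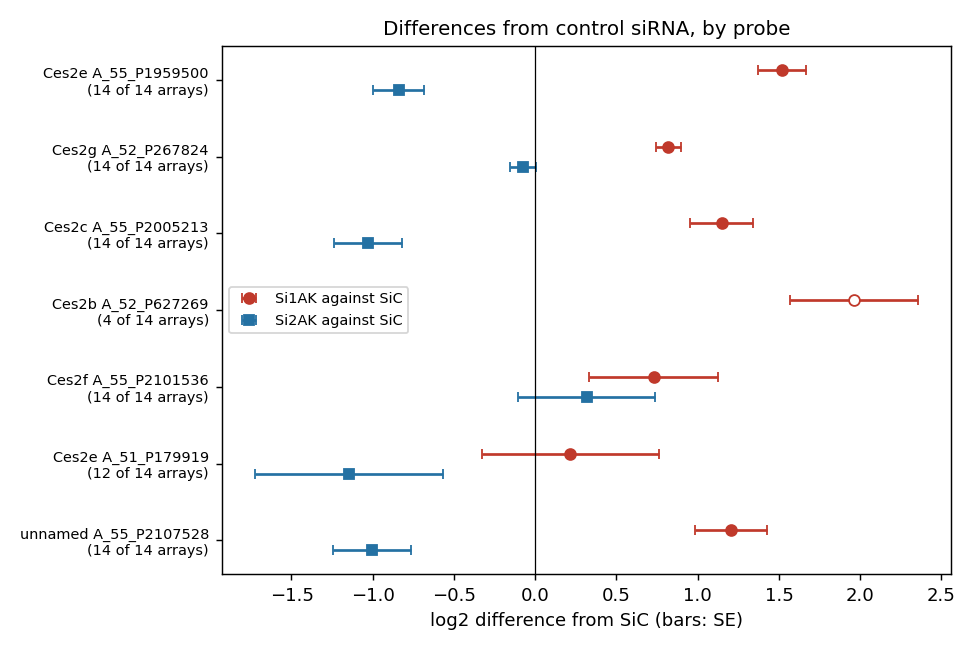
Log2 difference from SiC (horizontal axis; bars are SE) for each Ces2 probe well above background on at least 4 arrays and for the unnamed probe, with Si1AK as circles and Si2AK as squares. Array counts beside the names are those well above background, and an open symbol marks a comparison whose SiC arrays were all below it. The Ces2e, Ces2c and unnamed probes have a positive value with Si1AK and a negative value with Si2AK, and the Ces2g square lies at -0.08.

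Transfection itself could be tested, because the choice of genes did not rest on SiC against NT, although the SiC arrays also stand in the contrasts that did. No gene on the array was called in that comparison (limma, 0% of 21356 genes at an adjusted p under 0.05), and 1584 genes had an unadjusted p under 0.05. Ces2g had a log2 difference of -0.34 (SE 0.08) between SiC and NT cells, with every SiC array below every NT array, and had an adjusted limma p of 0.636 (unadjusted 0.00093). Ces2e differed by -0.29 (SE 0.15), again without overlap, with an adjusted limma p of 0.636 (unadjusted 0.070). Among all genes, 4.33% had every SiC array below every NT array. Ces2c differed by -0.05 (SE 0.19; adjusted limma p 0.920), and by -0.34 without SiC replicate 1. Ces2b was below background on every SiC and NT array, so that comparison gave no measurement for it.

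The rest of the carboxylesterase family gave little signal in this line. Of 16 further genes listed, 15 had a probe and 2, Ces1a and Ces2f, passed the filter on low signal. Neither was called in any of the 4 comparisons. On the 12 arrays of usual signal, 7 of the 15 were never well above background, 7 were on 1 to 11 arrays, and Ces2f alone was on all 12. Ces2a was above background only on SiC replicate 1 and Si2AK replicate 2, the arrays with raised signal. Ces2h was on those 2 arrays and on SiC replicate 3.

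Ces2f lies between Ces2e and Ces2g, at chr8:107479803-107479862, and is the nearest measured relative that was not chosen for its movement. Its level was -2.47, -2.47, -2.78 and -2.99 in Si1AK cells and -3.19, -2.89 and -3.19 in Si2AK cells. It was -2.10, -4.22 and -3.90 in SiC cells and -3.10, -3.27, -3.65 and -3.45 in NT cells. SiC replicate 1 was the highest of all arrays and the other SiC arrays were the lowest. The difference from SiC was 0.73 (SE 0.39; adjusted limma p 0.339) with Si1AK and 0.32 (SE 0.42; adjusted limma p 0.749) with Si2AK. Both rest on SiC arrays that lie far apart, and no value without SiC replicate 1 is given here. Against NT the difference was 0.69 (SE 0.37; adjusted limma p 0.314) with Si1AK, whose arrays all lay above the NT arrays. With Si2AK it was 0.28 (SE 0.39; adjusted limma p 0.742), with overlap. A missing call is thus not read as no movement. Si2AK minus Si1AK was -0.41 (SE 0.39; adjusted limma p 0.577).

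The unnamed probe came from the sequence search, and its levels ran in the same order as those of the Ces2c probe. It read -0.32, -0.16, -0.37 and -0.57 in Si1AK cells and -2.69, -2.21 and -2.78 in Si2AK cells. It read -0.91, -1.88 and -1.88 in SiC cells and -1.39, -1.60, -1.54 and -1.48 in NT cells. As with Ces2c, SiC replicate 1 stood above the NT arrays and the other SiC arrays below them. The difference was 1.20 (SE 0.22; adjusted limma p 0.0114) for Si1AK against SiC and -1.003 (SE 0.24; adjusted limma p 0.0173) for Si2AK against SiC. Si2AK minus Si1AK was -2.21 (adjusted limma p 0.0001). The call against SiC with Si2AK was lost without Si2AK replicate 1 (-0.94) or replicate 3 (-0.89). Both calls against SiC were lost when only the groups compared were fitted. On slide 1 alone the values were 0.67 with Si1AK and -1.54 with Si2AK, and on slide 2 alone -0.89 with Si2AK. Whether this probe and the Ces2c probe bind the same transcripts was not tested, so it does not stand as a separate measurement of the cluster.

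Most other genes of the region were not called. Within 500 kb of the outermost member probes, which span 129.9 kb, 27 further features were tested. With Si1AK against SiC, 3 were called higher and 0 lower, where 4.39% of all genes were called, 3.17% higher and 1.22% lower. With Si2AK against SiC, 5 were higher and 3 lower, where 13.2% of all genes were called, 8.52% higher and 4.67% lower. Between Si2AK and Si1AK 1 was higher and 2 lower, where 12.5% of all genes were called, 6.33% higher and 6.15% lower. The median log2 difference of the 27 was 0.03, 0.19 and 0.13 in these comparisons, and that of all genes -0.06, -0.02 and 0.10. The unnamed probe was the only 1 of the 27 called higher with Si1AK and lower with Si2AK, which 0.225% of all genes were. Since it resembles the Ces2c probe and may repeat its values, nothing is read from that share.

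Beside the unnamed probe, the calls with Si1AK were Cmtm3, a chemokine-like transmembrane gene (0.48, adjusted limma p 0.0248), and B3gnt9, a glycosyltransferase gene (0.55, adjusted limma p 0.0289). Cmtm3 lost its call without Si1AK replicate 1 or 2 or SiC replicate 1 or 2, and B3gnt9 without any Si1AK array or without SiC replicate 1. B3gnt9 was also higher with Si2AK (0.59, adjusted limma p 0.0130), a call lost without Si2AK replicate 3. E2f4, a cell cycle transcription factor, was lower with Si2AK than with SiC (-0.51, adjusted limma p 0.0230). That call was lost without Si2AK replicate 2 or 3 or SiC replicate 3, and the value was -0.13 after quantile scaling. The remaining called neighbours had log2 differences of 0.49 to 0.72 where higher with Si2AK, and -0.43 for Plekhg4, which turned to 0.17 after quantile scaling and 0.12 in the value table. K230015D01Rik lost its call against SiC without Si2AK replicate 1 or 2 or SiC replicate 2 or 3, and CJ301664 without Si2AK replicate 1 or SiC replicate 1. Ciao2b lost it without any Si2AK array or without SiC replicate 1, and Plekhg4 without any Si2AK array or without SiC replicate 2 or 3. The call of 4931428F04Rik held when any 1 array was left out.

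**Figure D3:**
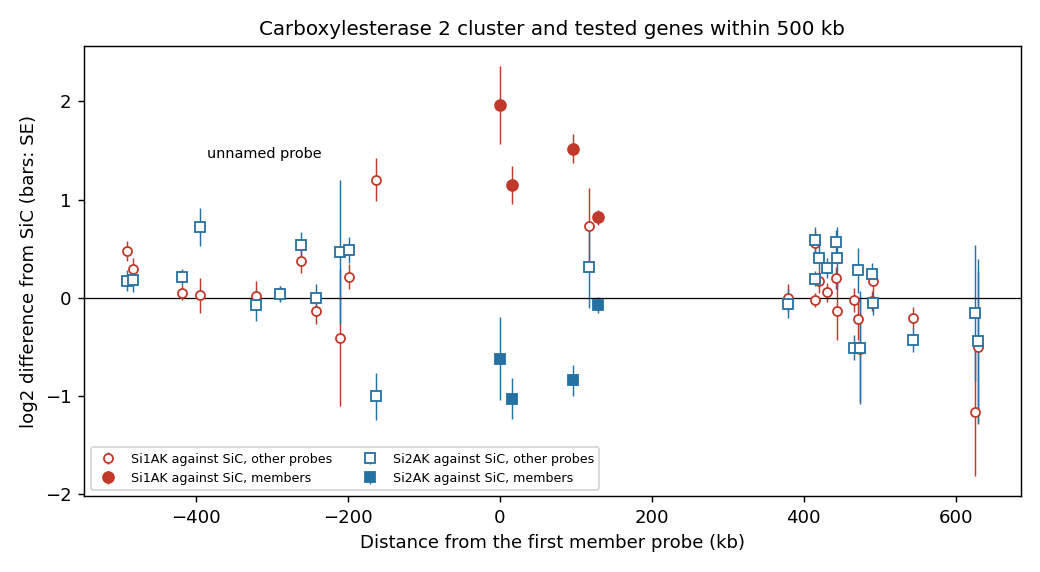
Log2 difference from SiC (vertical axis; bars are SE) against distance in kb from the first member probe, for Si1AK (circles) and Si2AK (squares). Filled symbols are the 4 members, open symbols other tested features within 500 kb. Ces2b, at 0 kb, was below background in SiC and Si2AK cells, so its values there are fitted readings only. The unnamed probe stands at 1.20 with Si1AK and -1.003 with Si2AK.

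Promoters were compared because members moved together with Si1AK. RefSeq sequences of the 250 bases before the start (GRCm38.p6, plus strand) were found for Ces2c (chr8:104846818-104847067), Ces2e (chr8:104926010-104926259) and Ces2g (chr8:104961468-104961717), and the table used here did not hold Ces2b. Capitals mark the motif matches, which are on the opposite strand.
Ces2c promoter: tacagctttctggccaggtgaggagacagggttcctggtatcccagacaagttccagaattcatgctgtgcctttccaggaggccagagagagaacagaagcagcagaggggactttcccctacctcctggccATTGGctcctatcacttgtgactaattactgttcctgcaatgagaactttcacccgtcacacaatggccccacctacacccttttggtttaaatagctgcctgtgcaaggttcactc
Ces2e promoter: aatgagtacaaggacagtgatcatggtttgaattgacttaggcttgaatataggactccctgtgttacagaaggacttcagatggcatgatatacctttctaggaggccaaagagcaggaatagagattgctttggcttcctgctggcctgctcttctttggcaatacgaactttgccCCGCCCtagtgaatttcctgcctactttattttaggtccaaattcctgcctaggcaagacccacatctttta
Ces2g promoter: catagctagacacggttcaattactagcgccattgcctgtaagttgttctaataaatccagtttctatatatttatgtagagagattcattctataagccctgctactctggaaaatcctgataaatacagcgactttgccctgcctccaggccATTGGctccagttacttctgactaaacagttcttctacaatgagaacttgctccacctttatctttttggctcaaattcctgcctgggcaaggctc

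The motifs searched on both strands were the TATA box TATAAA, the CCAAT box as CCAAT, the AP-1 site TGACTCA, the E-box CACGTG, the GC box GGGCGG and the nuclear receptor site AGGTCA. No match overlapped another in these promoters. CCAAT began 117 bases before the start in Ces2c and 96 bases before it in Ces2g. It is present in 33.8% of 32851 promoters of the same length. GGGCGG began 72 bases before the start in Ces2e and is present in 32.7% of promoters. TATAAA (12.4% of promoters), TGACTCA (4.46%), CACGTG (6.02%) and AGGTCA (14.02%) had no match in the 3 windows. The longest stretch shared by Ces2c and Ces2g was ggccattggctcc, which holds the CCAAT match, and that shared by Ces2e and Ces2g was caaattcctgcct. Each of these 13-base stretches was found in 3 of the 32851 promoters. Ces2c and Ces2e shared at most 9 bases, aggaggcca, which 209 promoters hold. Such sharing was not limited to the members. Ces2a, which is not a member, shared a stretch of 17 bases with Ces2e and 16 with Ces2f, and CCAAT was matched in Ces2a 2 times and in Ces2h 1 time.

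Genes of related function were followed in 4 lists, which were drawn up with results of these data already known. Of 33 tested neutral lipid and ester hydrolases, 4 were called higher and 1 lower with Si1AK against SiC, where 3.17% of all genes were higher and 1.22% lower. With Si2AK against SiC, 6 were higher and 1 lower, where 8.52% and 4.67% of all genes were. Between Si2AK and Si1AK 3 were higher and 4 lower, where 6.33% and 6.15% of all genes were. The medians of the list were 0.19, 0.13 and 0.08, beside -0.06, -0.02 and 0.10 for all genes. Lipa, the lysosomal acid lipase, had the lowest adjusted p of the list in Si2AK cells. Its level was -1.16 ± 0.36 in Si2AK and 0.50 ± 0.15 in SiC cells (SD, n = 3 each), a log2 difference of -1.67 (SE 0.15; adjusted limma p 0.0001). Si1AK cells were at 0.83 ± 0.11 (SD, n = 4), 0.32 (SE 0.14) from SiC with an adjusted limma p of 0.256, so Lipa did not pass in that direction.

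Mgll, the monoacylglycerol lipase, rose with both siRNAs, by 0.45 with Si1AK (adjusted limma p 0.0328) and by 0.68 with Si2AK (adjusted limma p 0.0022). The Si1AK call was lost when any Si1AK or SiC array was left out, with values from 0.38 to 0.49. Abhd6, another monoacylglycerol lipase, rose by 0.54 with Si2AK (adjusted limma p 0.0071). Pnpla7, a lysophospholipase gene, was lower in Si2AK than in Si1AK cells by a log2 difference of -1.23 (adjusted limma p 0.0066). Against SiC, Pnpla7 was higher with Si1AK (1.05, adjusted limma p 0.0353) and not called with Si2AK (-0.19, adjusted limma p 0.769). The Si1AK call was lost without Si1AK replicate 1, 2 or 3 or SiC replicate 2 or 3.

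Among 18 tested genes of triglyceride synthesis and lipid droplets, 3 were higher and 0 lower with Si1AK against SiC, where 4.39% of all genes were called. With Si2AK against SiC, 4 were higher and 1 lower, where 13.2% of all genes were called. Between Si2AK and Si1AK 5 were higher and 2 lower, where 12.5% of all genes were called. The medians were 0.08, 0.22 and 0.06, beside -0.06, -0.02 and 0.10 for all genes. Mogat2, a monoacylglycerol acyltransferase known from the intestine, was the list member called higher with Si1AK and lower with Si2AK. Its level was -0.27 ± 0.20 (SD, n = 4) in Si1AK, -2.42 ± 0.14 (SD, n = 3) in Si2AK and -1.24 ± 0.20 (SD, n = 3) in SiC cells. It was 0.97 (SE 0.15; adjusted limma p 0.0037) higher with Si1AK than with SiC, and with Si2AK it differed from SiC by -1.19 (SE 0.16; adjusted limma p 0.0007). Neither call was lost when any 1 array was left out. Bscl2, the seipin gene of droplet formation, rose with Si1AK (0.54, adjusted limma p 0.0090) and had -0.13 with Si2AK (adjusted limma p 0.519). Fitm2, Dgat1 and Lpin3, which act in droplet formation and triglyceride synthesis, rose with Si2AK by 0.88, 0.40 and 0.83 (adjusted limma p 0.0015, 0.0056 and 0.0011). Lpin3 was also called higher with Si1AK (0.46, adjusted limma p 0.0386), a call lost when any Si1AK or SiC array was left out. Fitm2 and Dgat1 were not called with Si1AK.

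Of 23 tested xenobiotic and lipid sensing transcription factors, 0 were called with Si1AK against SiC, where 4.39% of all genes were. With Si2AK against SiC, 1 was higher and 2 lower, and between Si2AK and Si1AK 3 were higher and 1 lower, shares near the 13.2% and 12.5% of all genes called. Ppard, a fatty acid receptor, rose by 0.81 with Si2AK (SE 0.11; adjusted limma p 0.0009). Rara, a retinoic acid receptor, was lower in Si2AK than in Si1AK cells (-0.67, adjusted limma p 0.0082). The pregnane X receptor gene Nr1i2, a known inducer of drug metabolism, was well above background on 3 of 14 arrays and on 1 of the 12 arrays of usual signal. It was looked up after its values were seen, and it does not stand for the list. Of the 28 listed factors, 23 passed the filter. Among them were Nr1i3, on 11 of 14 arrays, and Ahr, Ppara and Rxra, on all 14.

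The list of drug metabolism and efflux genes, of which 36 were tested, had 7 higher and 0 lower with Si1AK against SiC, where 3.17% of all genes were higher and 1.22% lower. With Si2AK against SiC, 3 were higher and 3 lower, and between Si2AK and Si1AK 2 were higher and 6 lower, where 13.2% and 12.5% of all genes were called. The medians were 0.11, -0.05 and -0.09, beside -0.06, -0.02 and 0.10 for all genes. Abcg2, a drug efflux pump, rose by 1.16 with Si1AK (SE 0.19; adjusted limma p 0.0060) and had -0.21 with Si2AK (adjusted limma p 0.631). The Abcg2 value with Si1AK was 2.02 after quantile scaling, where it missed the threshold. Gstm1, a glutathione transferase, rose by 0.59 with Si1AK (adjusted limma p 0.0153) and fell with Si2AK, at -0.45 (adjusted limma p 0.0318). The first call was lost without Si1AK replicate 2 (0.55), the second without Si2AK replicate 1 (-0.43) or 2 (-0.37) or SiC replicate 2 (-0.39) or 3 (-0.42). Whether this probe also binds related Gstm copies was not examined. Akr1c13, an aldo-keto reductase, fell with Si2AK, at -0.71 (SE 0.12; adjusted limma p 0.0026). Cyp3a13, a cytochrome P450, and Por, which passes electrons to such enzymes, rose with Si2AK by 1.27 and 0.73 (adjusted limma p 0.0078 and 0.0084). Cyp3a13 lost its call with its probes averaged (0.67) and was at 0.48 on slide 1 and 1.88 on slide 2. Against NT, SiC showed 0 calls in each of the 4 lists, which follows from 0% of all genes being called in that comparison.

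The genes most alike to each member were found by Pearson correlation of log2 level over the 14 arrays, which share groups, slides and scaling, so r is only a description. Only tested genes with a gene symbol and a value on every array were ranked. Features with just a probe, clone, accession or predicted name were left out, so the unnamed probe could not appear. Ces2e was closest to Pde6h (r = 0.983), Tuft1 (0.979) and Oas1f (0.978). Ces2g was closest to Wdr35 (0.977), Wfdc2 (0.967) and Osbpl7 (0.965). For Ces2c these were the water channel gene Aqp1 (0.969), the aminoacylase gene Acy3 (0.968) and Mogat2 (0.966). For Ces2b, dim on 10 arrays, they were Ctla2a (0.955), Robo3 (0.945) and Hoatz (0.945). Without the 2 arrays of raised signal, r for these 12 genes lay between 0.945 and 0.984. Aqp1 had levels of -0.86 ± 0.22 (SD, n = 4) in Si1AK, -3.50 ± 0.14 (SD, n = 3) in Si2AK, -1.84 ± 0.26 (SD, n = 3) in SiC and -1.90 ± 0.08 (SD, n = 4) in NT cells.

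Since the cluster is known from liver and gut, markers of those tissues were read beside it. Alb and Apoa1, both on the hepatocyte list, were above background only on the 2 arrays with raised signal, and 2 of 8 hepatocyte markers, Serpina1a and Tat, were on all 14. Ttr and Cyp2e1 were on 4, and Apob and Fgb on 3. The summed linear level of the hepatocyte list, in units of the array's 75th percentile, was 0.748 to 1.02 in Si1AK, 1.54 to 2.51 in Si2AK, 1.09 to 2.26 in SiC and 0.834 to 1.18 in NT cells. That sum is weighted toward its brightest probe, Serpina1a, which lay at -0.88 to 0.96 on the log2 scale. Of 8 enterocyte markers, Lgals4 was on all 14 arrays, Fabp2 on 13, Vil1 on 8 and Cdh17 on 7. Fabp1 was on 4, Cdx2 and Apoa4 on 2 and Sis on 1. The summed enterocyte level was 0.310 to 0.376 in Si1AK, 0.401 to 1.20 in Si2AK, 0.396 to 1.81 in SiC and 0.398 to 0.567 in NT cells. For both sums the Si2AK and SiC ranges include the arrays of raised signal. The hepatocyte sum of every Si2AK array lay above those of Si1AK and NT but overlapped SiC. The sums were not tested, and no difference between groups is read from them. Of the other lists, 3 of 7 fibroblast, 3 of 6 leukocyte, 3 of 4 endothelial and 1 of 5 adipocyte markers were well above background on all 14 arrays. The part of any of these cell types, liver and gut included, in the members' values was not tested.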

How the data were processed

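Total RNA of 14 mSCC-38 samples (0.2 µg input, RIN 9, 600 ng of labelled product, per the labels) was read on 8x60k 1-colour arrays with Agilent Feature Extraction 10.7.3.1. The processed signal is an intensity that the scanner software had background-subtracted, per the file headers. The "other" columns used, per the file headers, are flags and annotation. The series' value table, deposited by the authors, holds log2 values, each array's median near 6.51, with an unstated normalization. It correlated at 0.991 or more with the log2 mean signal and served as an alternative. The submitters' processing notes name limma. The members and gene lists were chosen with earlier results of these data known.

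Spots of a probe were averaged over 59305 non-control spots of 62976 per array. Log2 signal minus the array's 75th percentile was fitted for all groups in limma 3.58.1 (R 4.3.3; lmFit, eBayes; 10 residual degrees of freedom), with Benjamini-Hochberg adjustment over 21356 genes. A probe had to be well above background on every array of a group (30296 of 55681). Of several probes for a gene, that of highest mean level was used. In all, 296 genes lacked a value on some array, and 0 spots were saturated. RefSeq matched 27656 probes and updated 1711 names. Scripts were tested on simulated data. The number of arrays limits precision.

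Named genes were all members, any Ces gene, the called genes among the 4 with the lowest adjusted p per list and comparison, tested neighbours within 500 kb, and the 3 genes most alike to each member. Alternatives covered background correction, scaling, filter, probe choice, slide, the samples fitted and leaving out arrays. Replicates of a group correlated at 0.950 or more and no 2 arrays were identical.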

Additional observations from a re-analysis of the deposited data

Results flagged for a closer look

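Of the members and named genes, 4 had an array far from the others of a group of 4, by Dixon's criterion, and no member was among them. SiC and Si2AK, with 3 arrays each, were outside this rule, and both arrays of raised signal belong to them. Chance alone marks about 1 in 20 groups. Rrad read -0.63 on NT replicate 2, where the other NT arrays read -3.52 to -3.23. Ciao2b read 5.20 on Si1AK replicate 3, where the others read 5.42 to 5.47. Fbxl8 read 0.88 on Si1AK replicate 2, where the others read 0.67 to 0.69. Cyp2c55 read -2.85 on NT replicate 4, where the others read -2.24 to -2.19.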

How the results depend on the processing

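The signs of the differences of Ces2e and Ces2c from SiC, and of all 4 members between Si2AK and Si1AK, were the same under every alternative run. The members were chosen for opposite movement in these arrays, and Ces2b passed the filter only through Si1AK. The agreement of signs is thus a description and not support. Ces2e ranged from 0.87 to 1.71 with Si1AK and from -0.99 to -0.75 with Si2AK, Ces2c from 0.73 to 1.43 and from -1.59 to -0.74. Ces2g with Si2AK turned to 0.077 on slide 1 alone (-0.19 on slide 2). Ces2b with Si1AK, dim in SiC, ranged from 0.28 under normexp to 2.54 under quantile scaling. Pnpla8 turned to 0.57 (quantile) and 0.17 (value table) with Si1AK against SiC and to -0.19 and -0.047 with Si2AK against Si1AK, Plekhg4 to 0.17 and 0.12 with Si2AK against SiC, and Lrrc29 to -0.62 with Si2AK against Si1AK without both arrays of raised signal. The cause was not tested. Counts of called genes (Si1AK against SiC 937, Si2AK against SiC 2818, Si2AK against Si1AK 2664, SiC against NT 0) became 397, 1522 and 1589 in the first 3 with no filter on low signal. They became 248 and 90 against SiC with only the groups compared. On slide 1 alone they were 0, 398 and 363, on slide 2 alone 34, 180 and 388, from fewer arrays. SiC against NT gave 1 under quantile scaling, 1 on slide 2, 2 with slide as a block and 5 without both raised arrays. Leaving out 1 array gave 423 to 762, 1757 to 2708, 1751 to 2218 and 0 to 9. The lowest were without Si1AK replicate 2 (replicate 1 gave 455), Si2AK replicate 1 and Si2AK replicate 2, and the 9 was without SiC replicate 3. Replicate numbers did not pair the arrays (correlations of deviations -0.68 to 0.72), and with the replicate block the counts were 747, 2678, 2447 and 0. Of 62 calls of named genes that are not members, 38 held with no filter on low signal, 26 with only the groups compared, 47 under quantile scaling, 9 on slide 1 alone, 7 on slide 2 alone and 62 with slide as a block. For Ces2b, signal near background limits what can be measured.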
